A study of Rattus norvegicus with 45 samples.

Results

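Macrophage markers of the liver were followed in bulk RNA of rat liver on 45 arrays. The members are the probe sets whose platform annotation lists exactly 1 gene and that gene is one of 10 markers of Kupffer cells and other macrophages. Of the 10 genes, 8 were measured: Clec4f, Cd5l, C1qa, C1qb, C1qc, Cd163, Cd68 and Csf1r. They have 9 probe sets, with 2 for Cd5l, among 31042 probe sets tested and 14217 genes with a probe set of their own. Vsig4 and Marco matched no probe set and were not analysed here. The arrays are Affymetrix Rat Genome 230 2.0, and each of the 9 groups holds 5 arrays: control rats, rats given 225 mg/kg/day of myclobutanil and rats given 175 mg/kg/day of triadimefon, at 6 h, 24 h and 14 days. All were male Sprague-Dawley rats of 10 weeks that received their dose by gavage, and what the controls were given is not stated in the sources used here. Both compounds are triazole fungicides, and their doses differ, so a contrast between them compares these treatments and not equal doses. The labels count 15 livers in one place and 3 rats per group in another, while the sample titles give 5 arrays per group. The titles were followed, and where arrays shared an animal, p-values would measure only part of the spread.

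Kupffer cells are the resident macrophages of the liver sinusoids, where they clear particles, bacteria, dying cells and damaged red cells from portal blood. Clec4f is a galactose-binding lectin of rodent Kupffer cells, and Cd5l is a secreted scavenger-receptor-like protein of tissue macrophages. C1qa, C1qb and C1qc encode the chains of C1q, the recognition part of the classical complement pathway, which macrophages make. Cd163 takes up haemoglobin bound to haptoglobin, Cd68 is a glycoprotein of macrophage lysosomes, and Csf1r is the receptor for the growth factors Csf1 and Il34, on which macrophages depend. The tissue is whole liver, so fewer macrophages and less marker RNA per macrophage cannot be told apart in these data.

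The unit is the authors' score, which behaves like a logarithm centred near 0 in each array, and differences are in the same score units. No fold is given, since the base of the logarithm is not known. Array medians lay between -0.01 and 0.03, but the bright end differed between arrays: the 99th percentile ran from 2.69 to 3.52. The highest value belonged to control 2 at 24 h, which touches every comparison with the 24 h controls below. A difference was called at an adjusted p under 0.05 from limma with Benjamini-Hochberg adjustment over all 31042 probe sets, and every adjusted p below comes from that fit. Values after ± are standard errors of the fit unless named as SD. Of the 9 probe sets, 8 lay above 0 in mean score. The other, the second of Cd5l, had a mean of -0.09. The hepatocyte list, a check of the tissue label, had 17 of its 18 genes measured and none of them below 0 in mean score in any 24 h group.

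At 24 h the whole set of markers was lower with myclobutanil. All 9 probe sets fell against the controls of that time, by 0.22 to 0.79 units with a median of -0.43, while the median over all probe sets was -0.01. Of all probe sets, 5.42% were called lower in that comparison. In 7 of the 9 the 5 myclobutanil arrays lay wholly below the 5 control arrays, against 4.06% of all probe sets, and in all 9 each of the 5 treated arrays lay below the control mean. No marker was called with triadimefon at 24 h.

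Clec4f had the widest gap. Its scores were 2.49, 2.99, 2.63, 2.17 and 2.50 in control arrays 1 to 5, and 1.79, 1.49, 1.68, 1.88 and 1.96 in myclobutanil arrays 1 to 5. The lowest control therefore stood above the highest treated array. Clec4f fell by 0.79 ± 0.12 (adjusted p = 2.9e-05), with a 95% interval from -1.05 to -0.54. The 5 treated arrays also lay below each of the 15 control arrays of all times, of which the lowest was 2.15.

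The brighter Cd5l probe set read 2.13, 2.45, 2.14, 1.68 and 1.92 in control arrays 1 to 5 and 1.54, 1.23, 1.40, 1.68 and 1.72 with myclobutanil. The groups met at control 4, which lay under the treated arrays 4 and 5. This probe set fell by 0.54 ± 0.12 (adjusted p = 0.0023). The dimmer Cd5l probe set fell by 0.29 ± 0.07 (adjusted p = 0.0048), from a mean of 0.05 (SD 0.15, n = 5) to -0.25 (SD 0.10, n = 5), and its groups did not overlap. The probe sets of Cd5l therefore moved the same way, with the smaller step in the one near the background end of the scale.

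The C1q chains moved together. The genes C1qb, C1qc and C1qa follow each other on chromosome 5 in the RefSeq gene table of the assembly GRCr8. For C1qa the control scores were 1.92, 2.21, 1.93, 1.61 and 1.86 and the myclobutanil scores 1.41, 1.23, 1.36, 1.47 and 1.50, with no overlap. It fell by 0.51 ± 0.08 (adjusted p = 4.5e-05). The scores of C1qb were 1.88, 2.18, 1.90, 1.66 and 1.88 in controls and 1.53, 1.26, 1.44, 1.58 and 1.52 with myclobutanil. It went from 1.90 (SD 0.19, n = 5) to 1.47 (SD 0.12, n = 5), a change of -0.43 ± 0.08 (adjusted p = 0.00015). C1qc went from 1.65 (SD 0.24, n = 5) to 1.18 (SD 0.12, n = 5), a change of -0.47 ± 0.09 (adjusted p = 0.00057). The highest treated value of C1qb, 1.58, lay under the lowest control value, 1.66, and the same held for C1qc with 1.30 and 1.32. Against the controls of all 3 times the treated C1qa and C1qc arrays still lay below all 15, which held for 0.47% of all probe sets and for 3 of the 9 here, the remaining one being Clec4f. C1qb met the lowest of the 15 controls at 1.58.

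Since the markers moved together, the stretches before their start sites are shown for the gene of the widest gap and for C1qb and C1qa, between which C1qc lies. The 250 bases upstream of each start are given 5′ to 3′ on the gene's strand, from RefSeq on the build GRCr8. Capitals mark GAGGAA on either strand, the core of the sites bound by PU.1, a transcription factor of macrophages.
Clec4f, chr4:117696408-117696657, minus strand: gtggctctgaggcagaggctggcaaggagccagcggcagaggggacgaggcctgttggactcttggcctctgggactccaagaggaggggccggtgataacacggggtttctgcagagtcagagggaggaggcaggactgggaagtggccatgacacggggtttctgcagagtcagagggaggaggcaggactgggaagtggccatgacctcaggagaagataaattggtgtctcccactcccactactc
C1qb, chr5:154407828-154408077, minus strand: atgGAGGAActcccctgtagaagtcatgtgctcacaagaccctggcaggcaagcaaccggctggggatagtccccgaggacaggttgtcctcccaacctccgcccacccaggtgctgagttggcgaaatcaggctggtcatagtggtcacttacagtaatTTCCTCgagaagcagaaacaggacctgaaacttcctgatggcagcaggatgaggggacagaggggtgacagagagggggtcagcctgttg
C1qa, chr5:154419934-154420183, minus strand: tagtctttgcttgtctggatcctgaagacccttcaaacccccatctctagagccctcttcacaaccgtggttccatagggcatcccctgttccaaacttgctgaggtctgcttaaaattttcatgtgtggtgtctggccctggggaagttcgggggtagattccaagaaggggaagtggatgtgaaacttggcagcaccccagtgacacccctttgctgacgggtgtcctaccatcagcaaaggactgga
GAGGAA occurs in the shown stretch of C1qb on both strands and in neither strand of the stretches of C1qa and Clec4f. Of the 8 measured genes 7 matched an entry of the promoter table, and 4 of these 7 hold the motif (C1qb, Cd5l, Cd68 and Csf1r), against 23.3% of 33469 promoters. TGANTCA, the letters of AP-1 sites, occurs in 1 of the 7, Cd68, against 6.34% of all; it reads the same on both strands, and its matches in Cd68 do not overlap that of GAGGAA. These matches describe the letters in the window and nothing about binding.

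Csf1r, the receptor, read 1.07, 1.21, 1.13, 0.88 and 0.96 in control arrays 1 to 5 at 24 h. With myclobutanil its scores were 0.67, 0.60, 0.64, 0.82 and 0.81. No treated array reached a control array, and the change was -0.34 ± 0.06 (adjusted p = 0.00021). Cd68 fell by 0.32 ± 0.07 (adjusted p = 0.0022), from 1.03 (SD 0.20, n = 5) to 0.71 (SD 0.09, n = 5). Its groups overlapped through control 4, at 0.72. The Cd163 scores were 0.50, 0.57, 0.58, 0.44 and 0.68 in controls and 0.38, 0.20, 0.30, 0.41 and 0.38 with myclobutanil. Cd163 had the smallest difference of the 9 and fell by 0.22 ± 0.07 (adjusted p = 0.041), from 0.56 (SD 0.09, n = 5) to 0.33 (SD 0.09, n = 5), without overlap. The Cd163 call was lost when any 1 of 7 arrays was left out (control 2, 3 or 5, or myclobutanil 1, 2, 3 or 5), with differences from -0.25 to -0.19 and adjusted p from 0.026 to 0.14 over the 10 omissions.

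**Figure D1:**
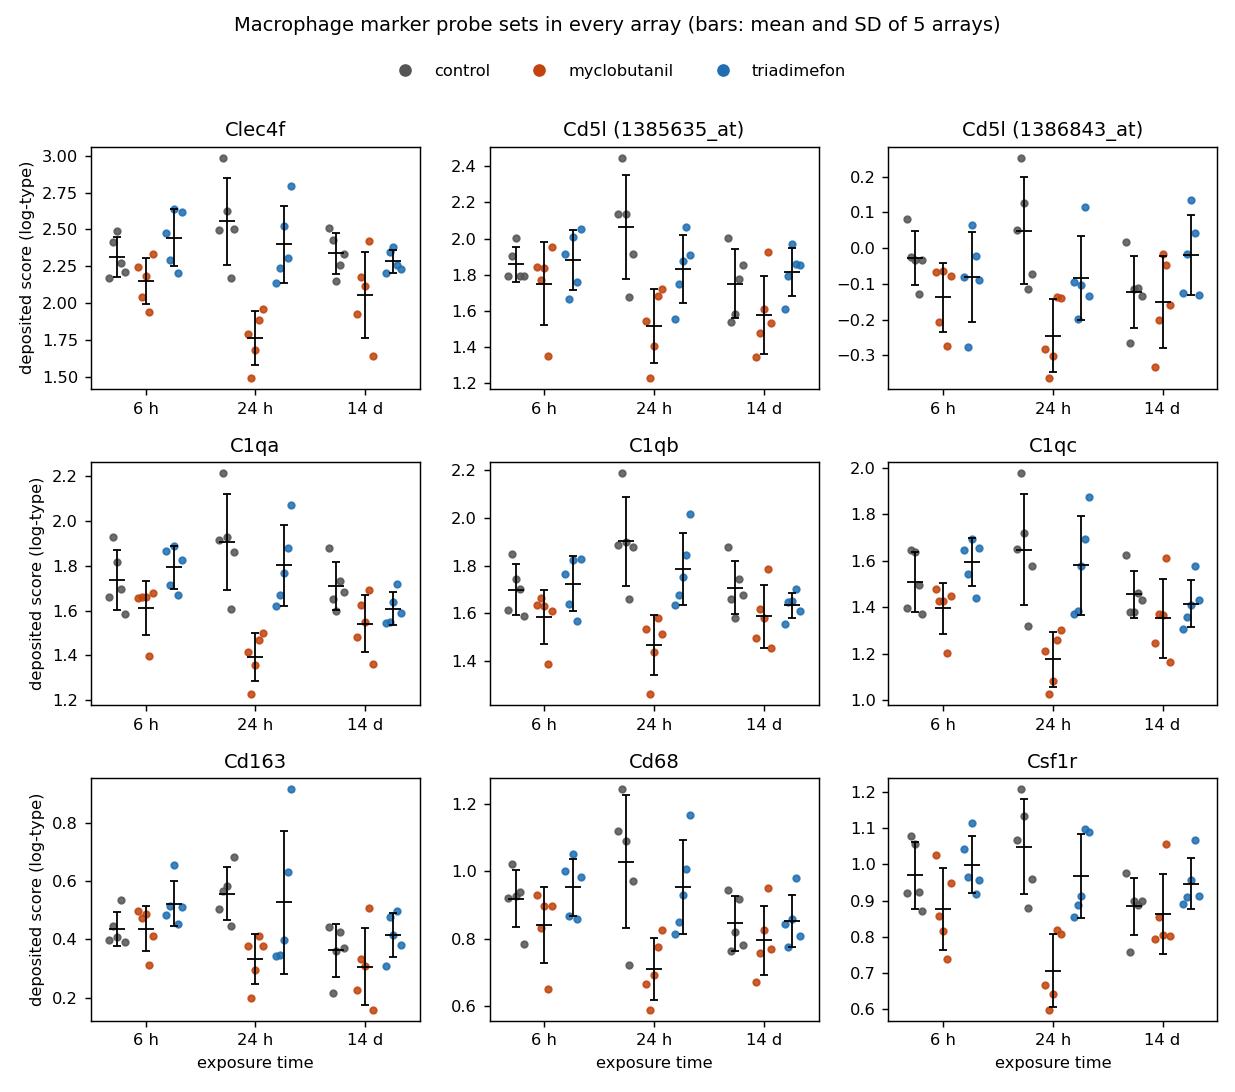
Deposited score of each of the 9 marker probe sets (vertical axis, log-type score units, scaled per panel) by exposure time (horizontal axis), with 1 point per array, coloured by treatment, and the mean and SD of 5 arrays in black. At 24 h the myclobutanil arrays of Clec4f sit between 1.49 and 1.96 and the control arrays between 2.17 and 2.99; in the other panels, too, the 24 h mean with myclobutanil lies below those with triadimefon and in controls.

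Arrays of the 24 h control group differed among themselves. Control 4 was its lowest array for all 9 probe sets. Control 2 at 24 h was the highest for 8 of the 9 probe sets, Cd163 being the exception, and its 99th percentile of 3.52 compares with 2.88 to 3.10 in the other 24 h controls, 2.81 to 3.05 with myclobutanil and 2.77 to 3.08 with triadimefon. Without it Clec4f differed by -0.69, C1qa by -0.44 and Csf1r by -0.30, and 8 of the 9 probe sets stayed called. The share of all probe sets called without this array is not given here. After quantile normalization, which makes the distributions of the arrays equal, all 9 were called lower, with differences from -0.68 for Clec4f to -0.20 for Cd163, 7 again without overlap (3.85% of all). Of all probe sets 4.78% were then called lower and 6.05% higher, against 5.42% and 3.05% as deposited.

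**Figure D2:**
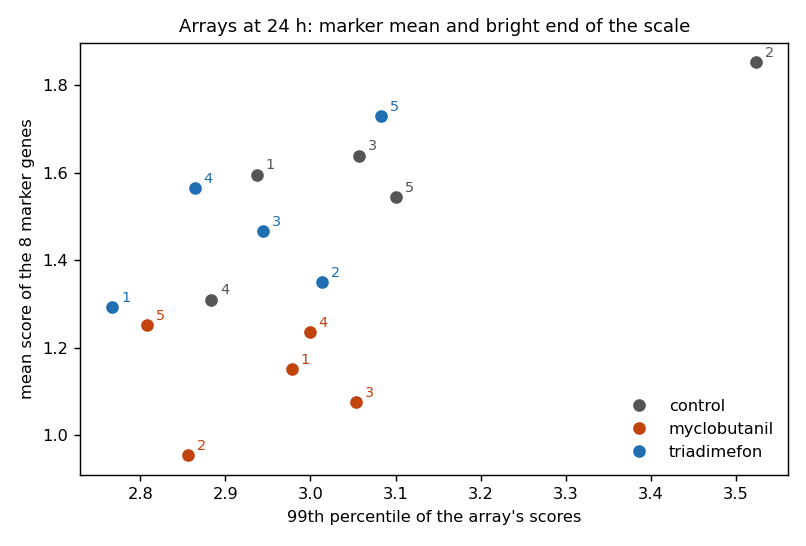
Mean score of the 8 marker genes, by the probe set of highest mean for each (vertical axis), against the 99th percentile of all scores on the same array (horizontal axis), for the 15 arrays at 24 h, with the replicate number beside each point. Control 2 stands apart at 3.52, and the 5 myclobutanil arrays lie lowest in marker mean, from 0.95 to 1.25, at percentiles within the range of the remaining arrays.

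With triadimefon at 24 h no marker passed the test against controls. Clec4f read 2.14, 2.24, 2.52, 2.30 and 2.80 in triadimefon arrays 1 to 5, within the range of the controls apart from array 1. Its difference from control was -0.16 ± 0.12, with a 95% interval from -0.41 to 0.10 (adjusted p = 0.50). Over the 9 probe sets the differences ran from -0.23 for the brighter Cd5l probe set to -0.03 for Cd163, with a median of -0.10, and by limma 0 passed, also at an unadjusted p under 0.05. Of all probe sets 7.98% were called in that comparison and 22% had an unadjusted p under 0.05. After quantile normalization the median was -0.01 and 6 of the 9 were below 0 in place of 9, so no direction is given. Array 5 of this group had the highest Cd163 score of all 45 arrays, 0.91, beside 0.34, 0.35, 0.40 and 0.63 in the other triadimefon arrays.

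The treatments were then set against each other at 24 h, where 5 of the 9 probe sets were higher with triadimefon than with myclobutanil. The background was 0.322% of all probe sets called higher. The differences that passed were 0.64 ± 0.12 for Clec4f (adjusted p = 0.005), 0.41 ± 0.08 for C1qa (adjusted p = 0.0066), 0.40 ± 0.09 for C1qc (adjusted p = 0.017), 0.32 ± 0.08 for C1qb (adjusted p = 0.025) and 0.26 ± 0.06 for Csf1r (adjusted p = 0.022). In each of these 5 every triadimefon array lay above every myclobutanil array, as in 1.09% of all probe sets. Cd68 (0.24, 95% interval 0.10 to 0.38, adjusted p = 0.075), Cd163 (0.19, 0.05 to 0.34, adjusted p = 0.22) and the Cd5l probe sets (0.31, 0.07 to 0.56, adjusted p = 0.26, and 0.16, 0.02 to 0.30, adjusted p = 0.35) did not pass.

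Clec4f and C1qa kept that call in all 19 alternatives run. The count of 5 went to 2 without myclobutanil 2, myclobutanil 3 or triadimefon 5, and to 3 without triadimefon 4. It was also 2 with only the compared groups in the fit, and 6 after quantile normalization, against 1.13% of all, where Cd68 passed (0.26, adjusted p = 0.0085, range over the alternatives 0.0085 to 0.27). For the counts of 2 and 3 the share of all probe sets called is not given here.

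**Figure D3:**
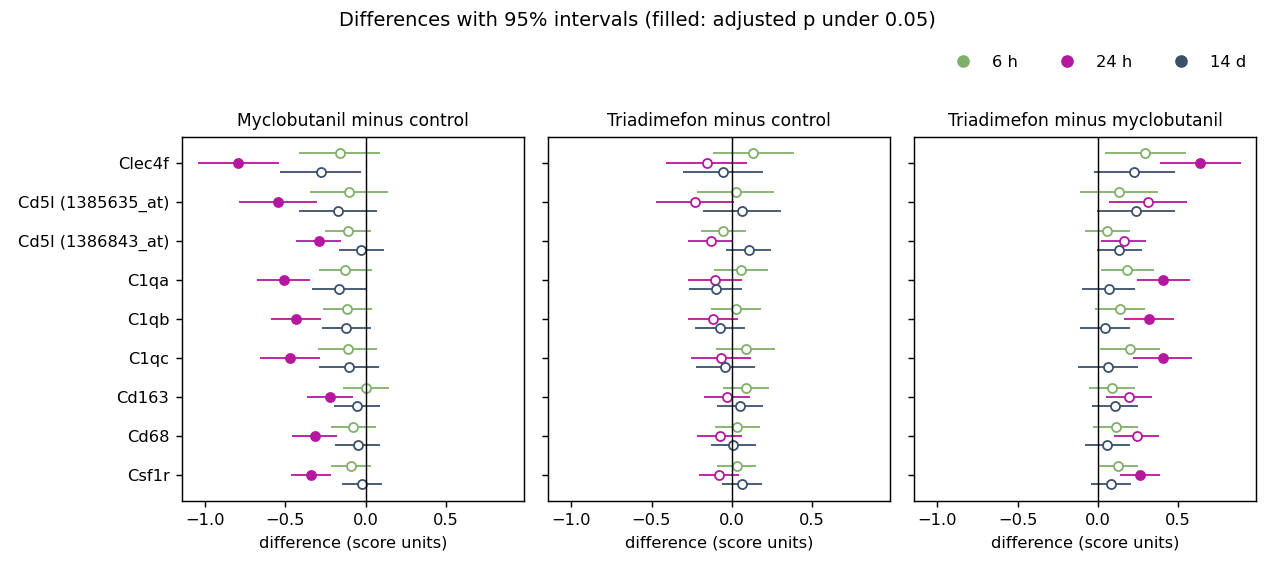
Difference in score units (horizontal axis) with its 95% interval for each probe set (vertical axis), for each treatment against its control and for triadimefon against myclobutanil, coloured by time, with filled points for adjusted p under 0.05. The 24 h points of the myclobutanil panel lie furthest left, from -0.79 to -0.22, and no point of the triadimefon panel is filled.

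At 6 h no marker was called. With myclobutanil the differences ran from -0.16 for Clec4f to 0.00 for Cd163, with a median of -0.11, and by limma 0 of 9 passed, also at an unadjusted p under 0.05, where 0.38% of all probe sets were called and 8.45% had such a p. With triadimefon they ran from -0.05 for the dimmer Cd5l probe set to 0.13 for Clec4f, with a median of 0.03 and 0 of 9 again by both counts, where 0.915% of all were called and 11.4% had such a p. Clec4f scores were 2.17, 2.42, 2.49, 2.27 and 2.21 in the controls, 2.25, 2.04, 2.18, 1.94 and 2.33 with myclobutanil and 2.47, 2.29, 2.64, 2.20 and 2.62 with triadimefon, so the groups overlapped. Between the treatments 0 of 9 passed (0.251% of all) and 3 had an unadjusted p under 0.05 (7.43% of all): Clec4f at 0.29 ± 0.12, C1qc at 0.20 ± 0.09 and C1qa at 0.18 ± 0.08, higher with triadimefon.

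Array names at 6 h end in different digits, which the labels do not explain: the ending is 12 on 3 myclobutanil and 3 triadimefon arrays and on no control array of that time. Among arrays of ending 11, with 3 control and 2 myclobutanil arrays, the 9 differences ran from -0.11 for the dimmer Cd5l probe set, the same as over all arrays, to 0.04 for Cd163. Clec4f was at -0.07 in place of -0.16, C1qa at 0.01 in place of -0.13 and Csf1r at 0.04 in place of -0.09. Of the 6 h controls 1 ends in 21 and 1 in 31. At 24 h every array ends in 11, and at 14 days all do but 1 myclobutanil array, which ends in 12.

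At 14 days the markers had 0 calls of 9 with either compound as deposited. With myclobutanil all 9 differences were below 0, from -0.28 ± 0.12 for Clec4f to -0.02 ± 0.06 for Csf1r, with 2 at an unadjusted p under 0.05, Clec4f and C1qa. Of all probe sets 0.792% were called and 13.1% had such a p. Clec4f read 2.51, 2.43, 2.15, 2.26 and 2.33 in the controls and 1.92, 2.18, 2.12, 2.42 and 1.64 with myclobutanil, so arrays 2 and 4 stood inside the control range and the other 3 under it. After quantile normalization both passed: Clec4f at -0.38 (adjusted p = 0.03, range over the alternatives 0.03 to 0.55) and C1qa at -0.25 (adjusted p = 0.036, range 0.036 to 0.56), where 0.399% of all probe sets were called lower. With triadimefon at 14 days the differences ran from -0.10 for C1qa to 0.10 for the dimmer Cd5l probe set, 4 below 0, with 0 at an unadjusted p under 0.05, while 6.69% of all probe sets were called and 23.7% had such a p. Between the treatments at 14 days the differences ran from 0.05 for C1qb to 0.24 for the brighter Cd5l probe set, and by limma 0 of 9 passed, also at an unadjusted p under 0.05 (0.332% of all called, 12.4% with such a p).

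Whether the effect of a compound changed with time was tested as a difference of differences. For myclobutanil, 24 h against 6 h, all 9 differences were below 0, from -0.63 for Clec4f to -0.18 for the dimmer Cd5l probe set. By limma 0 of 9 passed, with 8 at an unadjusted p under 0.05 and Clec4f nearest at an adjusted p of 0.0504 (range over 29 alternatives 0.0115 to 0.117). Of all probe sets 1.75% were called and 13% had an unadjusted p under 0.05. The count was 5 without control 4 at 24 h. From 24 h to 14 days the effect of myclobutanil on Csf1r moved up by 0.32 (adjusted p = 0.0265), as the 1 call of 9 against 4.56% of all probe sets, and the other 8 differences ran from 0.17 to 0.51 without passing. At an unadjusted p under 0.05 there were 8 of 9, against 21.5% of all probe sets. Quantile normalization ended the Csf1r call (0.21, adjusted p = 0.101, range over 29 alternatives 0.0086 to 0.101) and so did the loss of control 2, control 3 or myclobutanil 2 at 24 h, or of control 2 or myclobutanil 4 at 14 days. The count of 1 became 7 without control 4 at 24 h and 3 without myclobutanil 5 at 14 days. For the fits without an array the share of all probe sets called is not given here, so these counts have no background beside them. For triadimefon 0 of 9 passed in either step, with 0 and 1 at an unadjusted p under 0.05, where 3.13% and 12.7% of all probe sets were called and 18.1% and 30.1% had such a p. The fall with myclobutanil was thus called as deposited at 24 h and not at 6 h or 14 days, while the difference between times itself passed for 1 probe set.

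The controls themselves were highest at 24 h. The mean of the 24 h controls was the highest of the 9 group means for all 9 probe sets, and that of myclobutanil at 24 h was the lowest for 8 of 9, Cd163 being lowest with myclobutanil at 14 days (0.31). For Clec4f the order from low to high was myclobutanil at 24 h (1.76, SD 0.18), at 14 days (2.06, SD 0.29) and at 6 h (2.15, SD 0.16), triadimefon at 14 days (2.28, SD 0.08), controls at 6 h (2.31, SD 0.14) and at 14 days (2.34, SD 0.14), triadimefon at 24 h (2.40, SD 0.26) and at 6 h (2.44, SD 0.19), and controls at 24 h (2.55, SD 0.29). Of the 72 pairs of neighbours in the 9 orders, 2 stood apart by more than 2 standard errors, myclobutanil at 24 h from the next group for Clec4f and for Csf1r. Between controls, 24 h against 6 h gave 0.08 to 0.24 with 0 of 9 called by limma (2.78% of all) and 2 at an unadjusted p under 0.05 (13.9% of all), and 14 days against 6 h gave -0.11 to 0.03 with 0 by both counts (3.33% and 18% of all).

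The group means of 3 more markers, each over 5 arrays, show the same 24 h gap at other levels. C1qa read 1.74 (SD 0.14) in controls, 1.61 (SD 0.12) with myclobutanil and 1.79 (SD 0.10) with triadimefon at 6 h. At 24 h its means were 1.91 (SD 0.22), 1.39 (SD 0.11) and 1.80 (SD 0.18) in the same order, and at 14 days 1.71 (SD 0.11), 1.54 (SD 0.13) and 1.61 (SD 0.07). As for Clec4f, the mean with myclobutanil was the lowest of the 3 treatments at each time, while only the 24 h difference passed as deposited. Csf1r read 0.97 (SD 0.09), 0.88 (SD 0.11) and 0.999 (SD 0.08) at 6 h, 1.05 (SD 0.13), 0.71 (SD 0.10) and 0.97 (SD 0.12) at 24 h, and 0.88 (SD 0.08), 0.86 (SD 0.11) and 0.95 (SD 0.07) at 14 days. The 14 day means of this receptor in controls and with myclobutanil lay within 1 SD of each other. Cd163 read 0.44 (SD 0.06), 0.44 (SD 0.08) and 0.52 (SD 0.08) at 6 h, 0.56 (SD 0.09), 0.33 (SD 0.09) and 0.53 (SD 0.25) at 24 h, and 0.36 (SD 0.09), 0.31 (SD 0.13) and 0.42 (SD 0.08) at 14 days. The spread of the triadimefon group at 24 h was the widest of the 9 groups for this scavenger receptor.

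Other macrophage genes were lower with myclobutanil at 24 h as well. Of a second list of 25 macrophage genes, 21 were measured, each by its probe set of highest mean, and 11 fell and 0 rose, with a median of -0.18 against -0.01 over all genes. The background per gene was 6.86% called lower and 3.92% called higher. Ctss, a protease of antigen-presenting cells, fell by 0.61 ± 0.09 (adjusted p = 1.8e-05), Fcer1g, the signalling chain of Fc receptors, by 0.37 ± 0.08 (adjusted p = 0.0016) and Aif1, a calcium-binding protein of macrophages, by 0.33 ± 0.07 (adjusted p = 0.00085). With triadimefon 1 of the 21 was lower and 0 higher, where 8.31% of all genes were called lower, and between the treatments 2 were higher with triadimefon, against 0.443% of all genes. After quantile normalization these counts were 1 higher and 0 lower with triadimefon against control, so that no direction is given. Of all probe sets 4.45% were then called higher and 4.58% lower. Between the treatments 9 of 21 were higher after quantile normalization, where 1.13% of all probe sets were called higher. These shares are per probe set, and shares per gene after quantile normalization are not given here.

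Among 14 measured growth and identity factors of macrophages 4 were lower and 0 higher with myclobutanil at 24 h, among them Irf8 (-0.22, adjusted p = 0.0038), a transcription factor of the lineage, Csf2ra (-0.12, adjusted p = 0.0014), a receptor chain for GM-CSF, and Zeb2 (-0.11, adjusted p = 0.03), a transcriptional repressor. The ligands of Csf1r, named here after their values were seen, were at -0.02 for both Csf1 (adjusted p = 0.89) and Il34 (adjusted p = 0.55). For all lists in this comparison the background per gene was 6.86% called lower and 3.92% called higher. Inflammatory monocyte genes had 1 of 21 higher, Gpnmb (0.30, adjusted p = 0.043), a glycoprotein of phagocytes, and 2 lower, Ccl5 (-0.25, adjusted p = 0.0072) and Il18 (-0.18, adjusted p = 0.0079), with a median of -0.01. Genes of haem and iron handling had 1 of 10 higher, Blvrb (0.28, adjusted p = 0.012), and 2 lower, Slc40a1 (-0.25, adjusted p = 0.027), the iron exporter, and Blvra (-0.12, adjusted p = 0.013). Lysosomal genes had 4 of 16 lower and 0 higher, led by Npc2 (-0.34, adjusted p = 0.0043), Grn (-0.27, adjusted p = 0.0088) and Ctsa (-0.25, adjusted p = 0.017). Complement genes other than C1q had 6 of 19 lower and 0 higher, led by C6 (-0.67, adjusted p = 0.0036), C4bpb (-0.41, adjusted p = 0.019) and Cfd (-0.41, adjusted p = 0.00012).

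Markers of other liver cells were set beside these, again against 6.86% of all genes called lower and 3.92% called higher. Endothelial markers had 3 of 16 lower and 0 higher (Lyve1 at -0.20, Emcn at -0.13 and Pecam1 at -0.11) with a median of -0.10, and their mean score per array ran from 0.67 to 0.86 in controls and from 0.64 to 0.72 with myclobutanil. Stellate cell markers had 2 of 15 lower, Colec11 (-0.20) and Pdgfrb (-0.15), with a median of -0.15 and mean scores of 0.63 to 0.89 and 0.55 to 0.66. Hepatocyte genes had 1 of 17 lower, Ass1 (-0.58, adjusted p = 0.015), with a median of -0.23 and mean scores of 3.88 to 4.68 and 3.62 to 4.01. For the 8 macrophage markers the same range was 1.31 to 1.85 in controls and 0.95 to 1.25 with myclobutanil, the ranges not meeting. The ranges of the 21 further macrophage genes met, at 0.73 to 1.07 in controls and 0.68 to 0.78 with myclobutanil. The neutrophil list also had ranges apart, at -0.19 to -0.12 in controls and -0.23 to -0.20 with myclobutanil. So did the cell cycle list, which was higher with myclobutanil, at 0.02 to 0.29 and 0.39 to 0.72. Neutrophil markers had 2 of 8 lower, S100a9 (-0.24) and S100a8 (-0.15), and lymphocyte markers 1 of 17, Cd4 (-0.13), which rat macrophages also carry; in both groups most of these genes lay below 0 in mean score, 7 or 8 of 8 for neutrophils and 13 of 17 for lymphocytes. Erythroid markers had 0 of 8 called by limma and 2 at an unadjusted p under 0.05, where 21.9% of all probe sets had such a p. Bile duct markers had 1 of 9 lower, Anxa4 (-0.16), and 0 after quantile normalization. Cell cycle genes went the other way, with 21 of 21 higher and a median of 0.40, led by Stmn1 (0.78), Mcm6 (0.74) and Cdk1 (0.68). The mean score of the cell cycle list at 24 h was 0.12 in controls, 0.55 with myclobutanil and 0.31 with triadimefon. The part of these other cells in the fall of the macrophage markers was not tested.

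Most of these counts were smaller without control 2 at 24 h. Without that array the 21 further macrophage genes had 9 lower, the growth and identity factors 2, the lysosomal genes 1 lower and 1 higher, other complement 4, endothelial 1, and stellate, neutrophil and hepatocyte lists 0 each, while the 8 markers had 7 lower and the cell cycle list 21 higher. After quantile normalization the medians were -0.37 for the 8 markers, -0.13 for the further macrophage genes, -0.04 for endothelial, -0.10 for stellate and -0.03 for hepatocyte genes, where 4 of 17 were then lower. The lysosomal genes then had 4 lower and 3 higher, where 4.78% of all probe sets were called lower and 6.05% higher. The share of all genes called without control 2 is not given here, so the smaller counts cannot be set against it.

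**Figure D4:**
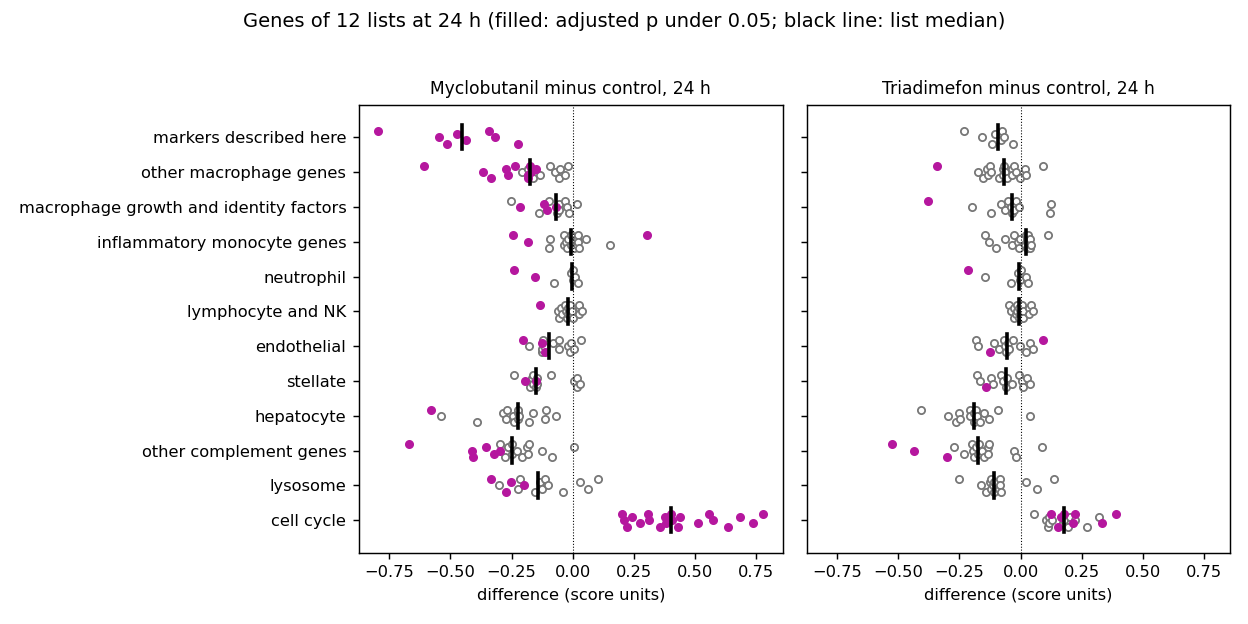
Difference from control at 24 h in score units (horizontal axis) for each measured gene of 12 lists (vertical axis), for myclobutanil and for triadimefon, filled where the adjusted p was under 0.05, with the list median as a black line. With myclobutanil all 8 markers are filled and left of 0 with a median of -0.45, the cell cycle list lies right of 0 with a median of 0.40, and with triadimefon no marker is filled.

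The 8 markers followed each other from array to array. Over the 28 pairs of genes Pearson's r across the 45 arrays ran from 0.68 to 0.98 with a median of 0.87. Taken as deviations from the group means, so that the treatments do not enter, it ran from 0.54 to 0.97 with a median of 0.83. The arrays share their brightness, which moves such values too, and no test is given. In myclobutanil at 6 h, array 4 was the lowest of its group for each of the 9 probe sets, with 1.40 for C1qa beside 1.66 to 1.68 in the others.

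The genes most like the mean of the 8 markers were Ctss (r = 0.96 over 45 arrays, 0.93 as deviations from group means), Ccl6 (0.94 and 0.92), a chemokine, Fcer1g (0.91 and 0.90), Axl (0.91 and 0.86), a receptor tyrosine kinase that binds Gas6, and Pld4 (0.90 and 0.88), an exonuclease of endolysosomes. They were taken as the 5 highest r among genes outside the marker list. Ctss and Fcer1g also belong to the second macrophage list. Since they were chosen for following the markers over the same arrays, their differences are a description, with no test. With myclobutanil at 24 h Ccl6 differed from control by -0.56, Axl by -0.28 and Pld4 by -0.16. With triadimefon at 24 h the differences of the 5 genes ran from -0.18 to -0.04.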

How the data were processed

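The 45 arrays fall into 9 groups of 5 by their titles. In the deposited table each array has a score for every probe set, which resembles a logarithm and can be negative; its base, background correction and normalization are not given in the sources used here. The scores were used as deposited, without a further logarithm. Of 31099 probe sets 57 control probe sets were left out, and no filter on low values was applied. Genes were named from the platform annotation: 20826 probe sets list 1 gene, 436 several and 9780 none. A model with 1 mean per group was fitted to all arrays with limma 3.58.1 in R 4.3.3 (lmFit, default eBayes), with Benjamini-Hochberg adjustment over 31042 probe sets. It was also run on simulated data with independent noise for each probe set, which lack the brightness that real arrays share. The arrays' number limits the precision, and nothing states separate animals for all arrays.

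All member probe sets are described. From every other list up to 3 genes are named, those of largest difference among genes that passed at 24 h with myclobutanil, each gene by its probe set of highest mean. The members and the lists were chosen with earlier results of these data known. Alternatives covered quantile normalization, equal array medians, a filter on low values, the samples in the fit, the variance model, the replicate number, the array name ending, a stricter threshold and each array left out. Array weights and the lists without control 2 at 24 h were added after seeing the data.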

Additional observations from a re-analysis of the deposited data

Results flagged for a closer look

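In the myclobutanil group at 6 h, array 4 stood far below the other 4 for all 3 C1q chains. C1qa read 1.40 there with the nearest array at 1.66, C1qb 1.39 with the nearest at 1.61, and C1qc 1.20 with the nearest at 1.43. Array 4 of myclobutanil at 14 days stood above its group for Csf1r, at 1.06 with the nearest at 0.85. These are 4 of 81 combinations of a probe set and a group, or 4.94%, where independent values would give about 1 in 20 by chance. The 3 C1q flags are not independent. They come from the same array, and deviations of the C1q chains from the group means correlated at 0.95 to 0.97.

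The effect of myclobutanil on Csf1r differed between times: from 24 h to 14 days it moved by 0.32 (adjusted p = 0.0265 by limma). The effect is called at 24 h, with -0.34, and not at 14 days, with -0.02. The call of the difference between times held in 22 of 29 alternatives and was lost after quantile normalization (0.21, adjusted p = 0.101).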

How the results depend on the processing

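The count of 9 lower probe sets with myclobutanil at 24 h was 8 or 9 under every alternative run. The call of Cd163 was lost with the array name ending as a covariate (adjusted p = 0.0502) and among arrays of ending 11 (adjusted p = 0.0665), and the call of Cd68 with only the compared groups in the fit (adjusted p = 0.0618). After quantile normalization the count was 2 in place of 0 for myclobutanil at 14 days, 2 in place of 0 for its effect at 24 h against 6 h, and 0 in place of 1 for its effect at 14 days against 24 h. The effect at 24 h against 6 h also gave 1 with equal array medians, 1 among probe sets above the median level, 1 with a variance trend and robust moderation, and 2 with array weights. With only the compared groups in the fit, the count for triadimefon against myclobutanil at 24 h was 2 in place of 5, and that for the effect of myclobutanil at 14 days against 24 h was 0 in place of 1. At an adjusted p under 0.01 these were 2 and 0. The stricter threshold passes fewer by construction. The cause of the other changes was not tested.

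Leaving out 1 array at a time gave counts of 8 to 9 for myclobutanil at 24 h, 2 to 6 for triadimefon against myclobutanil at 24 h, 0 to 5 for the effect of myclobutanil at 24 h against 6 h and 0 to 7 for 14 days against 24 h. It gave 0 to 1 for the effect of triadimefon at 14 days against 24 h (1 without control 4 or triadimefon 4 at 24 h), 0 to 1 for controls at 24 h against 6 h (1 without control 4 at 24 h), and 0 to 0 for the other 9 comparisons. The count for 24 h against 6 h was 2 without control 2 or myclobutanil 4 at 6 h, 1 without control 3 at 6 h or myclobutanil 4 or 5 at 24 h, and 5 without control 4 at 24 h. No called value changed sign. For fits without an array or under another setting, the share of all probe sets called is not given here unless it stands beside the count.

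Groups share replicate numbers in the titles, and no general pairing of arrays by number was seen. Deviations from the group means correlated at 0.03 on average between arrays of the same number and at -0.01 between arrays of different numbers, and in 0 of 11 comparisons did every pair exceed 0.1. Single pairs of the same number in compared groups ran from -0.37 to 0.58. These values cannot show whether some arrays shared an animal. With the number as a replicate block the counts were 9 for myclobutanil and 5 for triadimefon against myclobutanil at 24 h, and the block moved no count of calls. The unknown scale and brightness of the deposited scores limit the sizes of the differences.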
